A study of Mus musculus with 4 samples.

Results

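Lamins, the lamin B receptor, 3 keratins and vimentin were read out of 1 table of raw read counts per gene. The group comprised 8 gene rows of 58735, chosen by symbol: LMNA, LMNB1, LMNB2, LBR, KRT8, KRT18, KRT10 and VIM. Its members were picked with their wild-type and knockout read counts already known, so what follows on that contrast describes them and tests nothing. All 8 passed the filter on low counts and were among 15294 genes tested.

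The samples were 4 RNA-seq libraries of Jurkat, a human line of leukaemic T cells. Wild-type cells gave 2 libraries, and cells labelled as MATR3 knockout by CRISPR-Cas9 gave the other 2. The product of MATR3, matrin 3, binds RNA and belongs to the nuclear matrix. No guide is named in the labels, and they do not say whether the knockout cells were a single clone or a pool, or whether libraries of a group came from separate cultures. P-values therefore measure only the spread between these libraries, which may be technical.

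Intermediate filament proteins form rope-like polymers. Lamins line the inside of the nuclear envelope: LMNA encodes lamins A and C from a single gene, and LMNB1 and LMNB2 encode B-type lamins, which stay anchored in the membrane by a lipid tail. LBR sits in the inner nuclear membrane, binds B-type lamins and heterochromatin, and also acts as a sterol reductase. Keratins polymerise only as pairs of a type I and a type II chain; KRT18 (type I) pairs with KRT8 (type II) in simple epithelia, and KRT10 (type I) pairs with KRT1 (type II) in the upper epidermis. Vimentin is the cytoplasmic filament of mesenchymal and most blood cells.

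The libraries held 15008554 to 17477643 counted reads. The main row of MATR3 had 19 and 9 reads in the wild-type libraries, against 42 and 61 in those labelled knockout. It passed the test given below as higher in the latter, with a log2 fold change of 2.05 (SE 0.38). It overlaps a second MATR3 row that held at most 5 reads in any library, which leaves the knockout unchecked by these rows, and "labelled knockout" is used throughout. T cell markers were present in all libraries but lower in those labelled knockout, with 14 of 16 genes lower, 0 higher and a summed level of 3530 to 3782 CPM (counts per 1000000 scaled reads) against 1525 to 1560. Myeloid markers stood at a summed 492 to 505 CPM in wild-type, mostly CTSG, and 6103 to 6224 CPM in the libraries labelled knockout, mostly MPO. Of 15 tested genes, 14 were higher and 1 lower. Mean MPO went from 8.93 to 4920 CPM, and CTSG, the lower gene, from 401 to 92.3 CPM. All 15 mitochondrially encoded genes were higher, at a summed 93907 to 96618 against 47353 to 53072 CPM. These shifts lie in the same 2 libraries as every member change given here, and their part in those changes was not tested. In bulk libraries, a different number of cells expressing a gene and a different amount of RNA per cell cannot be told apart.

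By edgeR's quasi-likelihood test at an adjusted p of 0.05, 3 members were higher (LMNA, KRT8 and KRT18), 3 lower (LMNB2, KRT10 and VIM) and 2 did not pass (LMNB1 and LBR). Of all genes tested, 66.0% passed, 33.7% higher and 32.3% lower. Counts of list genes given below stand beside these shares. In all 8 members the CPM of the 2 groups did not overlap, as in 82.0% of all genes tested. Changes of at least 2-fold were found for 3 members (26.3% of all genes tested). The median log2 fold change was 0.00 over the members and 0.02 over all genes. Nothing is read from these counts, because the contrast was known when the members were chosen.

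**Figure D1:**
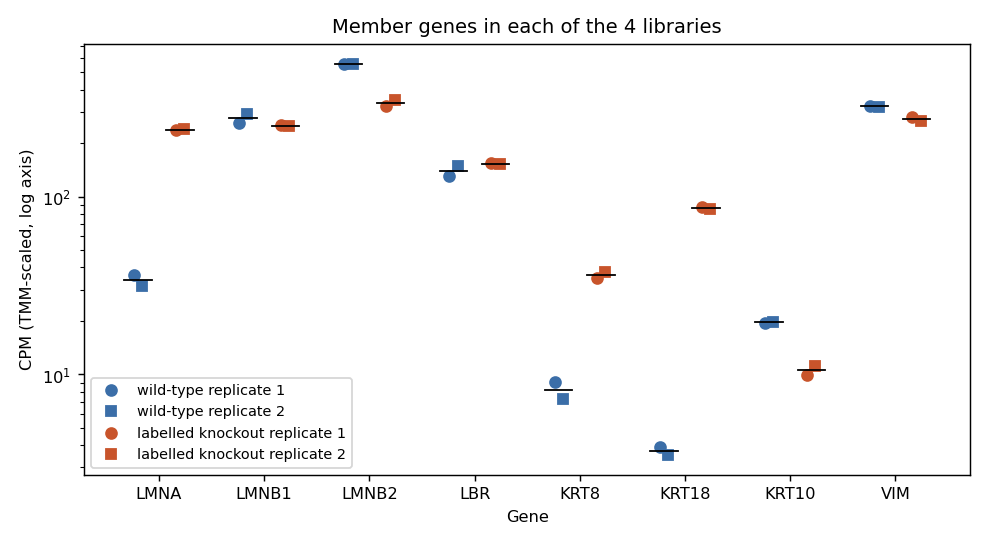
CPM of each member in each library (TMM-scaled, log axis); blue points are wild-type and orange points labelled knockout, circles replicate 1 and squares replicate 2, and black lines group means. KRT18 moved from under 4 to over 85 CPM and LMNA from under 37 to over 235 CPM, while LMNB1, LBR and VIM stayed close to their wild-type levels.

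LMNA had the largest change among the lamins. The gene lies on chromosome 1 (156082573 to 156140089, plus strand; the build is not given in the sources used here), row ENSG00000160789. Its level was 36.2 and 31.6 CPM in the wild-type libraries, against 236 and 239 CPM in those labelled knockout. The libraries labelled knockout were both far above wild-type and differed little from each other. Means were 33.9 ± 3.23 and 237 ± 2.40 CPM (SD, n = 2 each), a ratio of 7.01 and a log2 fold change of 2.81 (SE 0.083). Among all tested genes, 5.09% had a higher log2 fold change.

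The B-type lamins did not follow LMNA. LMNB2 (ENSG00000176619, chromosome 19, 2427638 to 2456996, minus strand) stood at 560 and 559 CPM in wild-type against 323 and 348 CPM in the libraries labelled knockout. That is a fall by 0.74 on the log2 scale (SE 0.070), with the wild-type libraries almost equal. LMNB1 (ENSG00000113368, chromosome 5, 126776623 to 126837020, plus strand) had 260 and 292 CPM in wild-type against 251 and 250 CPM in the libraries labelled knockout. The wild-type libraries differed more from each other than wild-type replicate 1 did from either library labelled knockout. Its log2 fold change of -0.14 (SE 0.071) did not pass the test, and it moved to -0.20 and past the threshold without wild-type replicate 1.

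LBR (ENSG00000143815, chromosome 1, 225401502 to 225428925, minus strand) was near level, at 130 and 149 CPM in wild-type against 155 and 152 CPM in the libraries labelled knockout. Its log2 fold change was 0.14 (SE 0.074), and wild-type replicate 2 lay within 4 CPM of the nearest library labelled knockout. Without that replicate the value was 0.22 and passed the test.

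The balance between lamin types within a library shows the same data without any scaling between libraries. Counting reads per base of each gene's deposited length, LMNA made up 2.88% and 2.41% of lamin reads in wild-type, against 20.8% and 20.5% in the libraries labelled knockout. LMNB1 held a similar share throughout, 39.8% and 42.8% against 42.6% and 41.1%. The LMNB2 share was lower, at 57.3% and 54.8% against 36.6% and 38.4%. LMNB1 stood 13.8 and 17.8 times above LMNA per length in wild-type, against 2.05 and 2.01 times in the libraries labelled knockout. These shares and ratios rest on the division by length, 6985 bases for LMNA and 3633 for LMNB1. Undivided, LMNA had 3456 and 3547 reads in the libraries labelled knockout, and LMNB1 3682 and 3704. The log2 ratio of LMNA to LMNB2 was -4.41 ± 0.137 in wild-type and -0.86 ± 0.062 in the others (SD, n = 2 each), so its groups lay far apart beside the spread of replicates. The 3 lamins together summed to 180 and 188 CPM per kilobase in wild-type against 162 and 167 in the libraries labelled knockout. With 2 libraries against 2, an exact permutation test of these ratios cannot pass 0.05, and none is given.

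**Figure D2:**
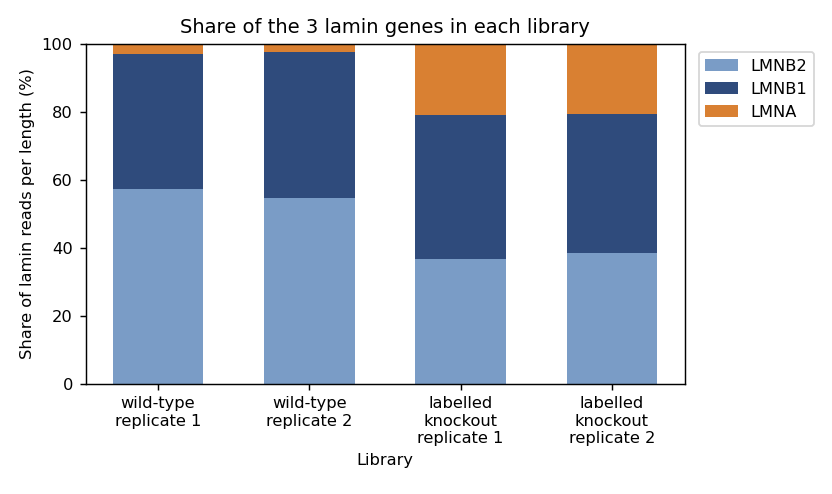
Share of reads per length among LMNA, LMNB1 and LMNB2 (percent, stacked to the whole) in each of the 4 libraries. LMNA took under 3% of lamin reads in wild-type and over 20% in the libraries labelled knockout, where the LMNB2 share was smaller.

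KRT18 changed most of all members. The gene lies on chromosome 12 (ENSG00000111057, 52948871 to 52952901, plus strand). It had 68 and 56 reads in wild-type, or 3.90 and 3.52 CPM, and 1280 and 1265 reads in the libraries labelled knockout, or 87.3 and 85.3 CPM. The libraries within each group were close and the groups far apart, with means of 3.71 ± 0.273 and 86.3 ± 1.43 CPM (SD, n = 2 each), a ratio of 23.3. The log2 fold change was 4.53 (SE 0.13), and 3.03% of tested genes had a higher one.

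KRT8, whose protein is the type II partner of keratin 18, rose by less. It lies next to KRT18 on the opposite strand (ENSG00000170421, chromosome 12, 52897187 to 52949954), and the 2 rows overlap over 1084 bases. KRT8 had 9.13 and 7.29 CPM in wild-type against 35.0 and 37.9 CPM in the libraries labelled knockout. Both libraries labelled knockout were above both wild-type libraries, and the ratio of means was 4.44 with a log2 fold change of 2.15 (SE 0.15). Per length, the KRT8 to KRT18 ratio was 1.09 and 0.969 in wild-type against 0.187 and 0.208 in the libraries labelled knockout. By this measure the pair was near even in wild-type and strongly weighted to KRT18 in the others. The evenness rests on the division by length. Undivided, KRT8 had 159 and 116 reads in wild-type, and KRT18 68 and 56. In the libraries labelled knockout, KRT8 had 513 and 562 reads and KRT18 1280 and 1265. Further limits apply to the KRT8 to KRT18 ratio. Reads in the overlap cannot be assigned without the strand setting. The KRT8 row of 6881 bases is longer than the 3218 bases of KRT18, with no statement of which exons it covers.

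Both keratin genes have many processed pseudogene copies that can take their reads. The table lists 50 KRT8 and 67 KRT18 pseudogene rows, of which 10 and 13 had any reads. KRT8 pseudogenes held 88 and 103 reads in wild-type against 137 and 118 in the libraries labelled knockout, most of them in KRT8P12 (65 and 68 against 89 and 77 reads). They made up 35.6% and 47.0% of all KRT8 and KRT8 pseudogene reads in wild-type, against 21.1% and 17.4% in the others. For KRT18 the shares were 24.4% and 29.1% against 2.51% and 2.01%. With pseudogene reads added to their parents, the log2 fold change was 1.69 for KRT8 and 4.12 for KRT18, and both still passed the test.

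KRT10 moved the opposite way. Its row (ENSG00000186395, chromosome 17, 40818117 to 40822595, minus strand) had 19.5 and 19.8 CPM in wild-type against 9.89 and 11.2 CPM in the libraries labelled knockout. Every library labelled knockout was well below both wild-type libraries, a fall by 0.90 on the log2 scale (SE 0.16). TMEM99 overlaps 3490 of its bases on the other strand. That row had nearly the same reads, 323 and 329 against 157 and 171, where KRT10 had 339 and 316 against 145 and 166. Reads of KRT10 and TMEM99 cannot be told apart without the strand setting.

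No other tested keratin was higher with KRT8 and KRT18. The table holds 55 keratin genes, 34 of them with 0 reads in all 4 libraries and 9 tested. Of the 6 tested that are no members, 4 were lower, 0 higher and 2 did not pass, with a median log2 fold change of -1.05. KRT1, the epidermal type II partner of keratin 10, was the most abundant keratin by reads in wild-type. It went from 142 ± 3.72 to 73.0 ± 3.57 CPM (SD, n = 2 each), a fall by 0.96 on the log2 scale (SE 0.078). KRT2, another epidermal type II keratin, fell by 1.14 on the log2 scale. KRT77 fell by 3.14, on 20 and 22 wild-type reads against 2 and 2 in the libraries labelled knockout. KRT5, a keratin of basal epidermis, had 12 and 11 reads in wild-type against 0 in the libraries labelled knockout, at least 6.78-fold lower taking 3 counts over those 2 libraries as the floor. KRT72 (-0.57) and KRT73 (-0.38) did not pass. Unscaled keratin reads as a whole were similar, 3302 and 2885 in wild-type against 3062 and 3192 in the others. Scaled, they summed to 190 and 181 CPM in wild-type against 209 and 215 CPM in the libraries labelled knockout. The part of keratin reads in KRT8, KRT18 and KRT10 went from 17.1% and 16.9% to 63.3% and 62.4%.

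**Figure D3:**
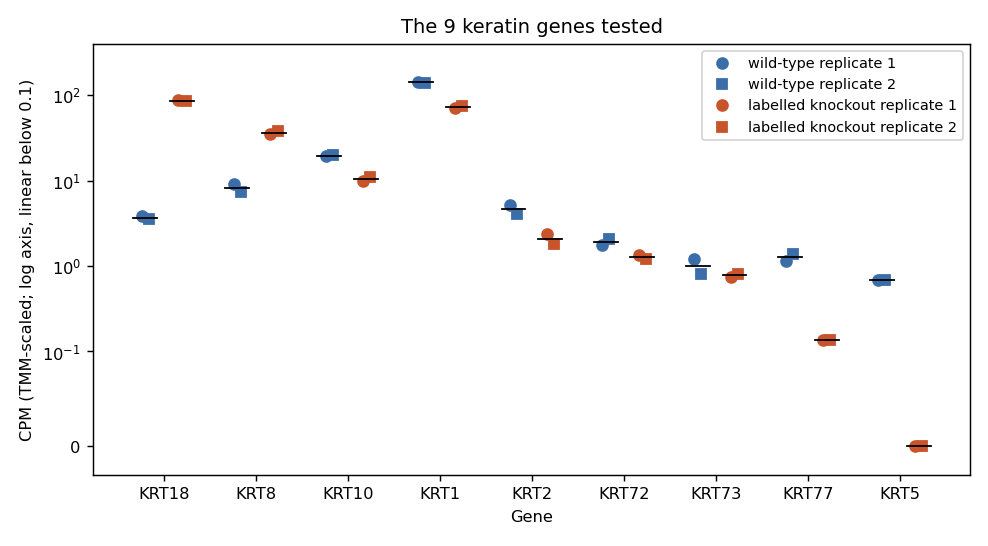
CPM of the 9 tested keratin genes in each library (TMM-scaled; log axis, linear below 0.1); blue is wild-type, orange labelled knockout, and black lines are group means. KRT18 and KRT8 were higher in the libraries labelled knockout, and the other 7 genes had lower means there, with KRT5 at 0.

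Other epithelial genes were at low levels in both groups. Of 17 epithelial markers, 7 were tested, with CLDN4 higher, TJP3 lower and 5 not passing (median log2 fold change -0.25). When 1 library was left out, 4 markers passed without wild-type replicate 1 and 1 without replicate 1 labelled knockout. CLDN4 did not pass without wild-type replicate 2 (0.95) or replicate 2 labelled knockout (0.66), and TJP3 did not without replicate 1 labelled knockout (-0.47). Their summed level was 30.2 to 30.7 CPM in wild-type against 25.2 to 26.1 CPM in the libraries labelled knockout. EPCAM, GRHL2, CLDN1 and AFP had 0 reads in all 4 libraries, and CDH1, which encodes E-cadherin, had at most a single read in any.

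Vimentin was abundant in every library and changed little. VIM (ENSG00000026025, chromosome 10, 17228259 to 17237593, plus strand) had 325 and 321 CPM in wild-type against 280 and 266 CPM in the libraries labelled knockout. All wild-type values were above all others, by at least 40 CPM. The log2 fold change of -0.24 (SE 0.070) passed the test with all 4 libraries, but not without replicate 1 (-0.28) or replicate 2 (-0.20) of the libraries labelled knockout. The antisense row VIM-AS1 overlaps 1727 of its bases and had 9 to 25 reads per library, against 3946 to 5666 for VIM. Fibroblast markers, which often accompany vimentin, were 4 higher and 3 lower of 8 tested among 14, at a summed 198 to 214 CPM in wild-type against 101 to 102 CPM in the others; COL1A2, COL3A1, DCN, FAP and PDGFRA had 0 reads.

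**Figure D4:**
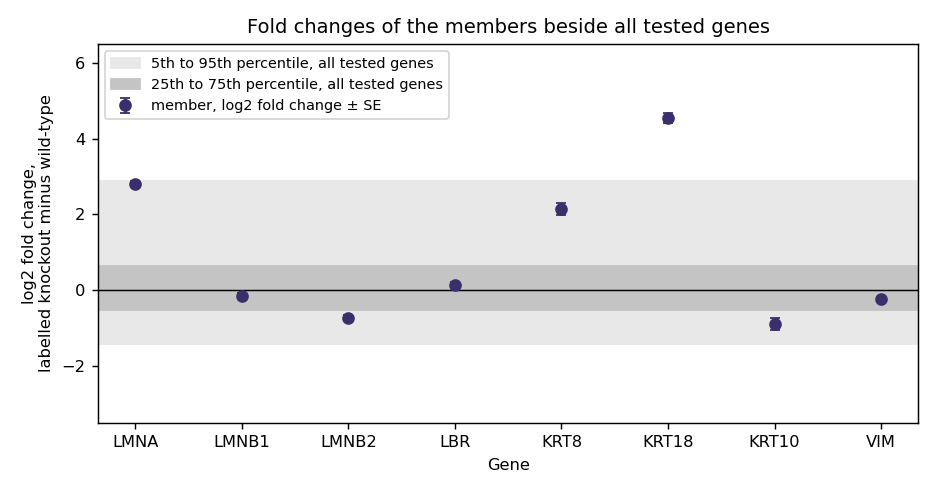
Log2 fold change of each member (labelled knockout minus wild-type, points with SE) over grey bands for the middle 50% and 90% of all tested genes. KRT18 lay above the wider band, LMNA (2.81) just below its upper edge (2.88), and LMNB1, LBR and VIM inside the narrower band.

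Levels of different genes were compared as CPM per kilobase of deposited gene length. In wild-type the order was LMNB2 (103), LMNB1 (76.0), VIM (62.6), LBR (26.6), KRT10 (9.17), LMNA (4.85), KRT8 (1.19) and KRT18 (1.15). KRT8 and KRT18 overlapped in this order, and no other neighbours did. It depends on the division by length: by CPM alone VIM ranked 2 and LMNB1 3, and LMNA ranked 5 and KRT10 6. In the libraries labelled knockout it was LMNB1 (68.9), LMNB2 (61.8), VIM (53.0), LMNA (34.0), LBR (29.2), KRT18 (26.8), KRT8 (5.30) and KRT10 (4.92), and there KRT8 and KRT10 overlapped. LMNA thus went from the 57.8th to the 91.2nd percentile of level among tested genes and KRT18 from the 29.9th to the 88.8th, while VIM stayed at the 94.9th and 94.7th.

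Partners of the lamina moved unevenly. The 20 genes listed include genes of the inner nuclear membrane and of the LINC complex that ties the nucleus to the cytoskeleton. Heterochromatin proteins bound by LBR are also listed, as are other partners such as PRR14 and BANF1. Of the 20 genes, 4 were higher, 5 lower and 11 did not pass (median log2 fold change -0.05). The share passing was 45.0%, against 66.0% of all genes tested. PRR14, which tethers heterochromatin to the lamina, rose from 23.2 ± 0.244 to 57.7 ± 2.92 CPM, and TMEM43, an inner nuclear membrane protein, from 52.5 ± 2.05 to 82.7 ± 1.26 CPM (SD, n = 2 each). SYNE3, a nesprin of the outer nuclear membrane, rose by 0.58 on the log2 scale. CBX1, an HP1 protein of heterochromatin, fell by 1.12, BANF1, which bridges DNA and the envelope, by 0.93, and EMD, the emerin gene, by 0.62. TMPO (-0.01), LEMD2 (0.00) and SUN2 (0.15) did not pass.

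Genes of enzymes that finish lamin precursors, listed together with NARF, were lower as far as they passed. Among the 6 genes, 5 passed as lower and 0 as higher (median -0.49). ICMT, which methylates the processed lamin tail, fell from 241 ± 3.14 to 118 ± 2.90 CPM (SD, n = 2 each). FNTB, the beta chain of the farnesyltransferase, fell by 0.65 and NARF, a prelamin A-binding protein, by 0.53 on the log2 scale. ZMPSTE24, the protease that releases mature lamin A, was at -0.45. FNTA, the shared alpha chain, was at 0.08 and did not pass. The 5 genes that passed were lower in the same libraries in which LMNA was higher and LMNB2 lower. Counts per gene do not separate lamin A from lamin C.

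LBR catalyses a late step of cholesterol synthesis, and 10 enzymes around that step were also examined. Of these, 7 were lower, 0 higher and 3 did not pass (median -0.72). TM7SF2, which catalyses the same reduction as LBR, went from 67.6 to 41.3 CPM (log2 fold change -0.71, SE 0.092). LSS, which closes the sterol rings, fell by 1.52, NSDHL by 1.16 and DHCR7, a late reductase of the pathway, by 1.06. LBR itself was at 0.14.

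Proteins that anchor filaments were mixed. Of 12 plakins, desmosomal proteins and linkers tested among 16, 6 were higher, 4 lower and 2 did not pass (median 0.13, and the same with genes at 0 set to their bounds). The share passing was 83.3%, against 66.0% of all genes tested. JUP, the plakoglobin gene, rose from 5.13 ± 0.776 to 33.1 ± 0.994 CPM (SD, n = 2 each). DSC2 and PKP2, both desmosomal, had 0 wild-type reads and were at least 18.8-fold and 15.1-fold higher, although at only 1.70 and 1.36 CPM. PLEC, the plectin gene, which links vimentin and keratin filaments to other structures, was the most abundant and fell by 0.44 on the log2 scale. EVPL fell by 1.53. PKP1 fell by 4.46 (SE 0.64), on 41 and 39 wild-type reads against 2 and 1 in the libraries labelled knockout. DSP, which encodes desmoplakin, the main keratin anchor of desmosomes, had 0 wild-type reads, stood at 0.136 CPM in the others and was not tested for lack of reads.

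Of 13 further filament genes, 6 were tested, with 2 higher, 2 lower and 2 not passing. NEFH, a neurofilament gene, rose from 0.421 ± 0.0267 to 3.90 ± 0.464 CPM (SD, n = 2 each). DES, the muscle filament gene, went from 0 wild-type reads to 1.22 CPM, at least 13.6-fold higher. IFFO2 fell by 1.30 and INA by 0.49 on the log2 scale; INA did not pass without wild-type replicate 1 (-0.43) or without replicate 1 (-0.46) or 2 (-0.53) labelled knockout. All of these were far below VIM in abundance.

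Kinases and proteases that act on filaments passed the test for 16 of 18 genes, 5 higher and 11 lower (median -0.39). That is 88.9%, against 66.0% of all genes tested. PRKCD, a protein kinase C isoform, rose from 41.3 ± 0.123 to 131 ± 3.42 CPM (SD, n = 2 each). CASP6, a caspase that cleaves lamin A, fell by 0.98 and PRKCE by 1.37 on the log2 scale. CDK1, the mitotic kinase that disassembles the lamina, was lower by a little (-0.22) and did not pass without wild-type replicate 2 (-0.13) or without replicate 1 (-0.28) or 2 (-0.15) labelled knockout. CAPN2 rose by 2.72 on the log2 scale, from 0.619 to 4.17 CPM, on 15 and 6 wild-type reads. Without wild-type replicate 1 its log2 fold change was 3.46.

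Among factors that mark the switch between epithelial and mesenchymal states, 5 of 9 were tested, with 2 higher and 2 lower. ZEB2, a repressor of epithelial genes, rose from 0.272 ± 0.0597 to 33.4 ± 2.96 CPM and its relative ZEB1 from 7.52 ± 1.62 to 15.5 ± 1.23 CPM (SD, n = 2 each). CDH2, the N-cadherin gene, fell by 2.95 and SNAI1 by 1.27 on the log2 scale. SNAI1 did not pass without wild-type replicate 1 (-1.12) or replicate 1 labelled knockout (-0.90).

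The 10 tested neighbours of LMNA on chromosome 1 all changed by less than it did. Of the nearest 5 tested genes on each side, 1 was higher, 5 lower and 4 did not pass. They ranged from -0.82 to 0.78 around a median of -0.14, against 2.81 for LMNA. The adjacent SEMA4A rose from 48.2 ± 6.27 to 83.1 ± 3.004 CPM (SD, n = 2 each), and MEX3A on the other side, at 0.20, did not pass, though it did without wild-type replicate 2 (0.33). The neighbours of KRT18 included KRT8 on one side and EIF4B, a translation factor gene (0.39), on the other, and beyond KRT8 lay KRT77, KRT1 and KRT2, all lower. Next to VIM, ST8SIA6 fell by 2.89 on the log2 scale, on 1 and 3 reads in the libraries labelled knockout. With a library left out, its log2 fold change ranged from -3.80 (without replicate 2 labelled knockout) to -2.34. Next to LBR, ENAH fell by 0.77 on the log2 scale. LMNB2 overlaps TIMM13 by 257 bases on the same strand, and TIMM13 fell by 0.61. KRT10 lies beside TMEM99 (above) and SMARCE1 (0.09, not passing, and below 0 without replicate 1 of either group). LMNB1 lies between PHAX (0.24, passing only without wild-type replicate 2, at 0.39) and a row whose symbol the table holds as a calendar date, which rose by 1.70. Of 70 distinct neighbours that are no members, 46 passed (65.7%), 17 higher and 29 lower, close to the 66.0% of all genes.

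**Figure D5:**
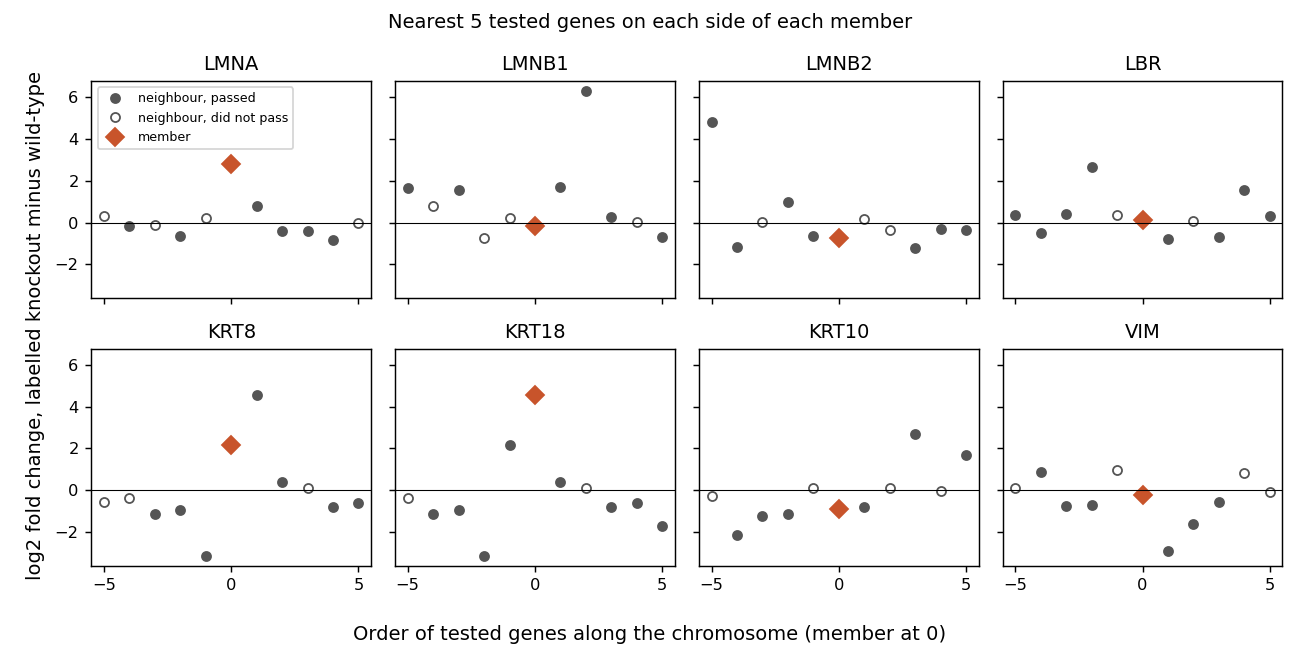
Log2 fold change (labelled knockout minus wild-type) of each member, an orange diamond at 0, and of its nearest 5 tested genes on each side in chromosome order; filled circles passed the test and open circles did not. LMNA (2.81) lies above all 10 of its neighbours plotted, of which the highest is at 0.78, and KRT8 and KRT18 are both higher beside lower keratin genes.

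The genes closest to each member were found by Euclidean distance of log2(CPM + 1) over the 4 libraries, among 12768 protein-coding genes. Distances ran from 0.036 to 0.513. GATA2, RPRD2 and PLOD3 were nearest to LMNA, with GATA2 at 27.1 and 248 CPM and PLOD3 at 26.3 and 235 CPM in the 2 groups. ETV5, CD37 and CARD9 were nearest to KRT18, at 3.25 to 4.66 CPM in wild-type against 70.8 to 75.9 CPM in the libraries labelled knockout. GPR27 and SPART were among the 3 nearest to KRT8, SH3BP5, RNFT2 and JMJD4 were nearest to KRT10, and RAPGEF1, DNAJC5 and HNRNPL to VIM. YWHAE, FKBP4 and SPTBN1 were nearest to LMNB2, FNBP1, YWHAG and ACIN1 to LMNB1, and CCDC88C and ZNF598 were among the 3 nearest to LBR.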

How the data were processed

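The authors deposited raw read counts per gene for 4 libraries, without normalization, per the file headers. Libraries were assigned through the short names in the labels, and gene length in bases, symbols and positions came from the deposited table. Every row has a human Ensembl identifier although the organism label says mouse, and values were treated as human. Per the submitters' processing notes, the tools were featureCounts 1.5.0-p3, HISAT2 2.0.5 and CASAVA 1.8; the build, strand setting and handling of multiply matching reads are not given in the sources consulted. Replicates differed by more than sampling noise (5.83 and 2.21 chi-square per gene), so each library counted as 1 sample.

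Counts were tested with edgeR 4.0.16 (R 4.3.3): TMM scaling, its default filter (10 counts, 15 in total), a two-sided quasi-likelihood test and Benjamini-Hochberg adjustment over 15294 genes at 0.05. The script was first tested on simulated data. CPM are TMM-scaled. With few reads, as for KRT5, values are imprecise; folds against 0 take 3 counts per group as the floor, which covers counting error only. Alternatives used DESeq2 1.42.0, limma 3.58.1, other scalings, filters and left-out libraries.

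The members and all 17 lists, such as lamina partners and epithelial markers, were chosen with earlier results of these data known. Named are the members, up to 3 genes in each direction per list, nearest neighbours, rows overlapping or copying a member, and nearest patterns; further list genes, such as those that did not pass, were named after their values were seen. Some genes that this rule selects are not reported here. Genes with 0 reads in 1 group enter medians at fitted values; medians were the same with bounds.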

Additional observations from a re-analysis of the deposited data

How the results depend on the processing

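The count of genes called was 10088 with all 4 libraries and ranged from 8018 to 10263 over 14 alternatives, and the members called from 5 to 7. LMNA, LMNB2, KRT8, KRT18 and KRT10 kept direction and call under all alternatives run, with log2 fold changes of 2.70 to 2.93, -0.79 to -0.69, 1.69 to 2.34, 4.12 to 4.63 and -0.99 to -0.81. LMNB1 passed the threshold without a composition factor (-0.19) and, when a library was left out, ranged from -0.20 to -0.069. LBR passed with upper-quartile scaling (0.17) and ranged from 0.062 to 0.22 with a library left out. VIM ranged from -0.28 to -0.20 with a library left out and lost its call without either library labelled knockout, where the remaining one is assumed to vary like wild-type. The cause of these changes was not tested. Epithelial markers called, 2 in the comparison reported, were 1 by the DESeq2 Wald test and 1 at an adjusted p of 0.01, and 1 to 4 with a library left out. Natural killer markers called ranged from 1 to 3 with a library left out. Erythroid and megakaryocyte markers called, 0 of 3 in the comparison reported, were 1 with upper-quartile scaling, 1 without an expression filter and 0 to 2 with a library left out. Among the neighbours, SMARCE1 turned to -0.14 without wild-type replicate 1 and -0.012 without replicate 1 labelled knockout, in a range up to 0.36 with a library left out. INA, SNAI1, CLDN4, NKG7 and CDK1 lost their call by the DESeq2 Wald test, CLDN4, NKG7 and CDK1 without an expression filter, NKG7 without a composition factor and CDK1 with upper-quartile scaling. MEX3A gained a call with upper-quartile scaling and over protein-coding rows. The replicate numbers are not said to pair the libraries, and deviations of same-numbered libraries correlated at 0.028; with a replicate block 10072 genes were called and the log2 fold change of LMNA was 2.81. Adding pseudogene reads was chosen after seeing the data.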

Other observations

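Genes of the actin cytoskeleton, the filament system beside the intermediate filaments, were mostly lower. Of 18 genes tested, 10 were lower, 4 higher and 4 did not pass (median log2 fold change -0.31). ZYX, a focal adhesion protein gene, rose from 129 ± 0.516 to 397 ± 3.81 CPM (SD, n = 2 each), VCL, the vinculin gene, by 0.81 and ACTN4, an actin crosslinker, by 0.56 on the log2 scale. CNN3, a calponin, fell by 1.88, and the tropomyosins TPM1 and TPM4 fell by 1.26 and 1.06. MKL1 and MKL2 were not matched under these symbols.

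Markers of further blood lineages were at low summed levels in both groups. Of 10 B cell markers, 5 were tested. PAX5 (0 wild-type reads, at least 32.1-fold) and BLNK (log2 fold change 3.47, on 0 and 2 wild-type reads) were higher. SPIB (-3.42, on 24 and 27 wild-type reads against 1 and 3), BLK (-2.54) and CD79A (-1.36) were lower. The 10 B cell markers summed to 38.4 to 43.2 CPM in wild-type and 14.0 to 14.7 CPM in the libraries labelled knockout. Of 9 natural killer markers, 3 were tested, with NCR3 and NKG7 higher and NCAM1 lower, at 24.1 to 25.7 and 32.5 to 33.4 CPM. Only 1 of them passed without replicate 1 labelled knockout, 2 without wild-type replicate 2 and 2 without replicate 2 labelled knockout; NKG7 lost its call in each of these fits (0.27 to 0.32) and NCAM1 in the first (-1.97). Of 11 erythroid and megakaryocyte markers, 3 were tested by edgeR and 0 passed, at 28.1 to 28.6 and 34.1 to 35.5 CPM. At an unadjusted p of 0.05, 1 passed by edgeR, while DESeq2 and limma voom each called 0 after adjustment. Without wild-type replicate 1, 2 passed, and without wild-type replicate 2, 1 did.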
